A study of Mus musculus with 5 samples.

Results

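The 7 genes of the vascular endothelial growth factor (VEGF) family described here are the ligand genes Vegfa, Vegfb, Vegfc and Pgf and the receptor genes Flt1, Kdr and Flt4. They were chosen by name among the 37982 Ensembl gene identifiers of the deposited files. Each of the 7 symbols matched 1 identifier, and all 7 were among the 16286 symbols with a mean of at least 1 FPKM over the 5 mice, which were the genes tested. FPKM is the number of fragments of a gene divided by its length and by the depth of the library. RNA was sequenced from brain microvascular fragments of 3 wild-type (WT) and 2 heterozygous Ins2-AKITA (Ins2AKITA) mice, to ask whether long-lasting hyperglycemia changes the transcriptome of the brain vasculature. All were males on a C57BL6 background, between 26 and 38 weeks old, and the WT mice were littermates. In Ins2AKITA mice, 1 copy of the insulin 2 gene is mutated, the insulin-producing beta cells are lost and blood glucose is high, so the model combines low insulin with high glucose. The fragments were captured with beads against PECAM1, a surface protein of endothelial cells, and they bring attached pericytes and astrocyte end-feet with them. Each library is 1 mouse.

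VEGF ligands are secreted dimers that bind receptor tyrosine kinases on endothelial cells. VEGF-A (Vegfa) acts mainly through VEGFR2 (Kdr), the receptor that drives endothelial growth, survival and permeability. VEGFR1 (Flt1) binds VEGF-A, VEGF-B (Vegfb) and placental growth factor (Pgf), has weak kinase activity and, also in a soluble form, holds VEGF-A away from VEGFR2. VEGFR3 (Flt4) is the receptor of VEGF-C (Vegfc) and is best known from lymphatic vessels. In the adult brain, VEGF-A is made largely by astrocytes and choroid plexus epithelium, whereas the receptors are found mainly on the endothelium. The deposited values are per gene, so the soluble and membrane forms of Flt1 and the splice forms of Vegfa were not separated.

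On NCBIM37, the assembly the authors mapped to, the receptor genes are Flt1 (ENSMUSG00000029648, minus strand of chromosome 5 from 148373180 to 148537587), Kdr (ENSMUSG00000062960, minus strand of chromosome 5 from 76328852 to 76374483) and Flt4 (ENSMUSG00000020357, plus strand of chromosome 11 from 49422765 to 49466241). The ligand genes are Vegfa (ENSMUSG00000023951, minus strand of chromosome 17 from 46153942 to 46169326), Vegfb (ENSMUSG00000024962, minus strand of chromosome 19 from 7056963 to 7062141), Vegfc (ENSMUSG00000031520, plus strand of chromosome 8 from 55162886 to 55271808) and Pgf (ENSMUSG00000004791, minus strand of chromosome 12 from 86507589 to 86518246). The 250 bases before the start of Flt1, Kdr and Vegfa are shown. They are RefSeq promoter windows (RefSeq build GRCm38.p6) that were found once each, without a mismatch, in NCBIM37 on the minus strand, at chr5:148537588-148537837 for Flt1, chr5:76374481-76374730 for Kdr and chr17:46169327-46169576 for Vegfa. Capitals mark GGAA or its reverse complement TTCC, the core letters that ETS transcription factors bind.
Flt1: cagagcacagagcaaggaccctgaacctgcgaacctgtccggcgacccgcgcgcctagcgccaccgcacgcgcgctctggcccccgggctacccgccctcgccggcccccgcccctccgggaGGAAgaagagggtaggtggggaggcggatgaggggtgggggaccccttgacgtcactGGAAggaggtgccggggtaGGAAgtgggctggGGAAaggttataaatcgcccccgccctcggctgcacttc
Kdr: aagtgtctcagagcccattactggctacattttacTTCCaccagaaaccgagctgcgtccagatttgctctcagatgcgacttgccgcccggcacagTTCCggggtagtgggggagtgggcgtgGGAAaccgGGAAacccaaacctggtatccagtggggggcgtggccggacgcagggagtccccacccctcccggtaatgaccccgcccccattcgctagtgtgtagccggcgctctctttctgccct
Vegfa: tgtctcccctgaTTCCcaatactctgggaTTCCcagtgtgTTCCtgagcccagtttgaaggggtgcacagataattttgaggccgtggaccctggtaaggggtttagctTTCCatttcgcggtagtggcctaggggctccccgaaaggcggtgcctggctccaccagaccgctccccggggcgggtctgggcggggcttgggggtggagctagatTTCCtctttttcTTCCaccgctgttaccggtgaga

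GGAA or TTCC occurred 4 times in the Flt1 window, 4 times in the Kdr window and 6 times in the Vegfa window, against 0 to 2 times in the windows of the other members. The Flt4 window follows a RefSeq start 416 bases inside the gene of the NCBIM37 annotation, and the Kdr window reaches 3 bases into the annotated gene. The motif is common: 93.4% of all 32851 RefSeq windows of this length held it on either strand, with a mean of 2.91 matches. The Flt1 window also held TATAAA, the TATA box, starting 31 bases before the start, and no other member did; 12.4% of all windows held it on either strand. All 7 members held GGGCGG or CCGCCC (the GC box), with 2 to 4 matches each, against 32.7% of all windows with any match. None of the 7 held ACGTG or CACGT, the core of the hypoxia response element, which 16.6% of all windows held. For Vegfa and Pgf, which have 2 RefSeq starts each, only the window of the most upstream start was used. These counts describe letters in a short window and not bound sites, and bases further upstream were not examined.

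Between 1127100 and 2848168 fragments per mouse were estimated to lie behind the FPKM values, WT replicate 3 being the deepest library. The estimate came from genes with 1 transcript and few fragments, where 97.20% to 97.66% of the values of a mouse fell within 0.05 of a whole number of fragments. Protein-coding genes made up 3.09%, 3.20% and 11.0% of the FPKM sum in WT and 9.77% and 27.5% in Ins2AKITA mice, while their own sum differed little, between 3.886e+05 and 4.216e+05. All 14 markers of endothelial cells were above 0 in all 5 mice, as were all 9 of pericytes, 8 of astrocytes, 8 of neurons, 6 of oligodendrocytes, 7 of microglia and 6 of the choroid plexus, so the samples held RNA of cells other than those of the vessel wall.

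Flt1 had the highest mean level of the family and Pgf the lowest. In FPKM, a level per length, the order of the means over the 5 mice was Flt1, Vegfb, Vegfa, Kdr, Vegfc, Flt4 and Pgf. Flt1, Vegfb and Vegfa lay above 95.6%, 94.9% and 92.2% of the tested protein-coding genes, Kdr above 74.1%, Vegfc above 43.5%, Flt4 above 25.1% and Pgf above 18.2%. Of the neighbours in this order, Vegfa and Kdr were clearly apart, with ranges that did not overlap and a Vegfa level 1.61 to 4.57 times that of Kdr in the same mouse. Vegfb was above Vegfa and Kdr above Vegfc in 5 of 5 mice, but the ranges of each pair overlapped. The order did not hold in every mouse for the other pairs: Flt1 was above Vegfb in 3 of 5 mice, Vegfc above Flt4 in 3 and Flt4 above Pgf in 4.

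**Figure D1:**
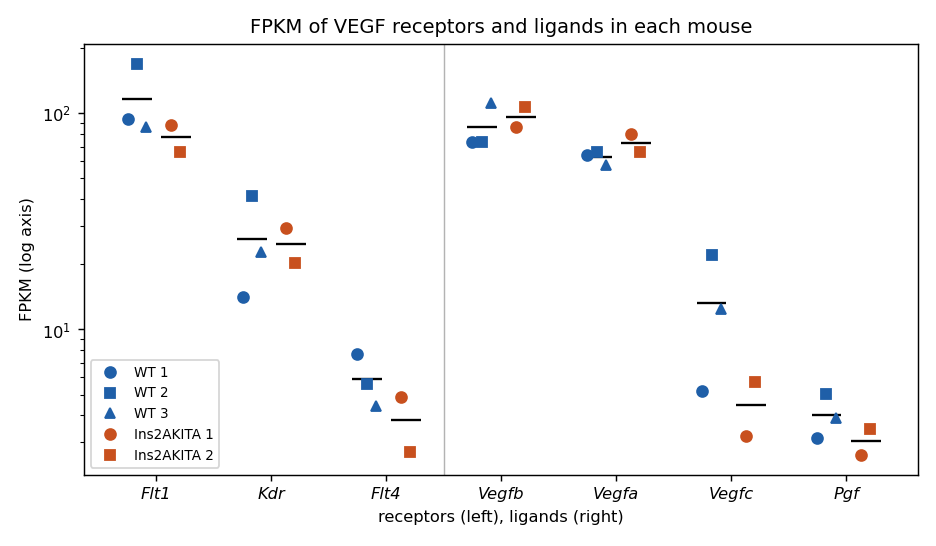
FPKM (log axis) of the 3 receptor genes and 4 ligand genes in each of the 3 WT (blue) and 2 Ins2AKITA (orange) mice; the bars are group means. The genotypes overlap for every gene; WT replicate 2 has the highest Flt1 (170 FPKM), Kdr (41.3), Vegfc (22.2) and Pgf (5.02).

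None of the 7 genes differed between the genotypes by the test across all genes. limma with Benjamini-Hochberg adjustment gave adjusted p values between 0.90 and 0.99 for them, and none had an unadjusted p under 0.05. Over all tested genes, this test called 0% as higher and 0.0246% as lower in Ins2AKITA mice (0 and 4 genes), and an unadjusted p under 0.05 was reached by 1.53% as higher and 2.93% as lower. The mean was lower in Ins2AKITA mice for Flt1, Flt4, Vegfc and Pgf and higher for Vegfa and Vegfb, while that of Kdr was close to WT. For none of the 7 genes did both Ins2AKITA values lie above all WT values or below them, as they did for 9.24% and 10.3% of all tested genes. The median log2 fold change of the 7 genes was -0.31, beside -0.03 for all tested genes. With 3 mice against 2, an exact permutation test cannot give a p below 0.1. Fold changes are on the log2(FPKM + 1) scale, which understates the change of low genes such as Pgf. In these bulk samples, fewer cells of a type and less RNA per cell cannot be told apart.

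**Figure D2:**
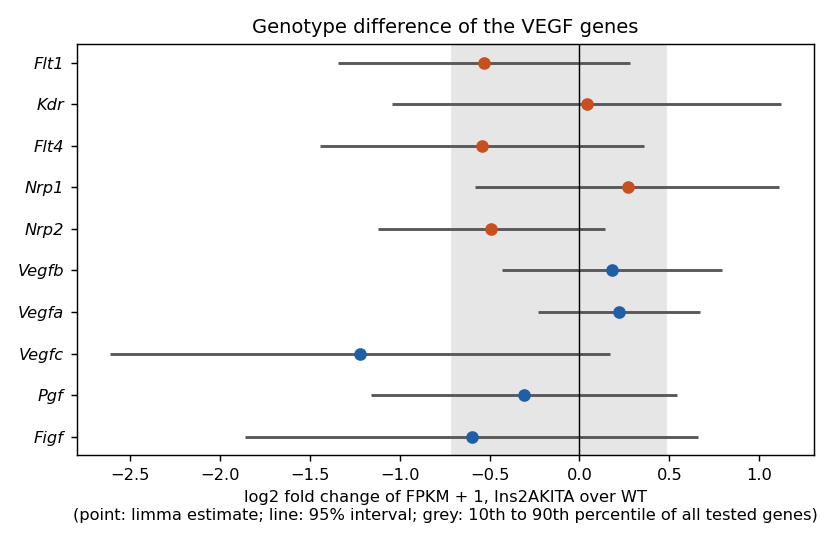
log2 fold change of FPKM + 1 in Ins2AKITA over WT mice for the family, for Figf and for the co-receptors Nrp1 and Nrp2, with the 95% interval from limma; orange points are receptors and co-receptors, blue points ligands. Every interval includes 0, and that of Vegfc (-2.61 to 0.17) is the widest.

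Among the receptors, Flt1 was present at 93.8, 170 and 86.4 FPKM in WT replicates 1 to 3 and at 88.6 and 66.6 FPKM in Ins2AKITA replicates 1 and 2. WT replicate 2 stood above the other 4 mice, and Ins2AKITA replicate 1 lay between the other WT mice. The mean was 117 ± 46.4 FPKM (SD, n = 3) in WT and 77.6 ± 15.5 FPKM (SD, n = 2) in Ins2AKITA mice, a 1.51-fold lower mean. On the log2 scale, the difference was -0.53 (standard error 0.33, 95% interval -1.34 to 0.28, limma adjusted p = 0.90, exact permutation p = 0.5). It was -0.23 without WT replicate 2 and -0.33 without Ins2AKITA replicate 2. Between 571 and 1641 fragments per mouse were estimated behind these values, so counting error was small beside the spread of the mice.

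Kdr, the main signaling receptor, had close means in the genotypes and a wide spread. It was at 14.1, 41.3 and 22.9 FPKM in WT and at 29.6 and 20.2 FPKM in Ins2AKITA mice. Both extremes of the 5 mice were WT, WT replicate 1 being the lowest and WT replicate 2 the highest, 2.93-fold apart. The mean was 26.1 ± 13.9 FPKM (SD, n = 3) in WT and 24.9 ± 6.64 FPKM (SD, n = 2) in Ins2AKITA mice. The difference on the log2 scale was 0.04 (standard error 0.45, limma adjusted p = 0.99), and its 95% interval of -1.04 to 1.12 covers a 2-fold change either way. It was -0.32 without WT replicate 1 and -0.22 without Ins2AKITA replicate 1, so its direction rested on single mice.

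Flt4 was low in all mice. It was at 7.67, 5.58 and 4.43 FPKM in WT and at 4.88 and 2.71 FPKM in Ins2AKITA mice. Ins2AKITA replicate 2 was below all WT mice and replicate 1 was within their range. The log2 fold change was -0.54 (standard error 0.37, 95% interval -1.44 to 0.36, limma adjusted p = 0.90, exact permutation p = 0.3). About 21 to 76 fragments per mouse lay behind these values. The exact Poisson 95% interval was 3.49 to 5.54 FPKM in WT replicate 3 and 1.68 to 4.14 in Ins2AKITA replicate 2, and such intervals cover counting error only. Without Ins2AKITA replicate 2 the log2 fold change was -0.20.

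Flt1 made up most of the receptor RNA in every mouse. Its share of the summed FPKM of the 3 receptors was 81.2%, 78.4% and 76.0% in WT and 72.0% and 74.4% in Ins2AKITA mice. The share of Kdr was 12.2%, 19.0% and 20.1% in WT and 24.1% and 22.6% in Ins2AKITA mice. A ratio of both genes within a mouse does not depend on how that mouse was scaled. The Flt1 level was 6.67, 4.12 and 3.77 times that of Kdr in WT and 2.99 and 3.30 times in Ins2AKITA mice. Both Ins2AKITA ratios were below all WT ratios, as were the ratios to Kdr of 4.14% of the 14383 other tested genes above 0 in all mice. The mean log2 ratio was 2.23 ± 0.44 (SD, n = 3) in WT and 1.65 ± 0.10 (SD, n = 2) in Ins2AKITA mice, a difference of -0.58 with an exact two-sided permutation p of 0.2 and, adjusted over the 6 ratios compared, 0.6. WT replicate 1, which had the lowest Kdr level, had the highest ratio, and without it the difference was -0.33. The Flt4 to Kdr ratio was 0.545 in the same mouse and between 0.134 and 0.193 in the other 4.

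Of the ligands, Vegfa varied least. It was at 64.3, 66.3 and 57.5 FPKM in WT and at 80.4 and 66.2 FPKM in Ins2AKITA mice. Ins2AKITA replicate 1 was the highest, while replicate 2 lay just inside the WT range. The mean was 62.7 ± 4.62 FPKM (SD, n = 3) in WT and 73.3 ± 10.1 FPKM (SD, n = 2) in Ins2AKITA mice. The estimate on the log2 scale was 0.22 (standard error 0.19, limma adjusted p = 0.90, exact permutation p = 0.2), with a 95% interval of -0.23 to 0.67, that is, from 0.85-fold to 1.59-fold. This was the narrowest interval of the family.

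Vegfb, a ligand of VEGFR1 alone, had values of 73.5, 74.0 and 112 FPKM in WT and 86.4 and 107 FPKM in Ins2AKITA mice. The lowest and the highest value both came from WT mice. The log2 fold change was 0.18 (standard error 0.25, 95% interval -0.43 to 0.79, limma adjusted p = 0.92). The Vegfb to Vegfa ratio was 1.14, 1.12 and 1.94 in WT and 1.07 and 1.61 in Ins2AKITA mice, and the genotypes overlapped (difference of the mean log2 ratios -0.04, exact permutation p = 0.8, 0.8 adjusted over the 6 ratios). Of the summed FPKM of the 4 ligands, Vegfb made up 44.2% to 60.2% and Vegfa 31.0% to 46.6%.

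Vegfc had the largest difference of the family and also the largest spread. It was at 5.17, 22.2 and 12.4 FPKM in WT and at 3.21 and 5.72 FPKM in Ins2AKITA mice. WT replicate 1 was below Ins2AKITA replicate 2, and the WT mice differed 4.29-fold among themselves. The mean was 13.3 ± 8.56 FPKM (SD, n = 3) in WT and 4.47 ± 1.77 FPKM (SD, n = 2) in Ins2AKITA mice, a 2.97-fold lower mean. Ins2AKITA over WT, the log2 fold change was -1.22 (standard error 0.57, 95% interval -2.61 to 0.17, unadjusted limma p = 0.0753, adjusted p = 0.90, exact permutation p = 0.3). By the estimated fragments, the values rested on about 10, 49 and 58 fragments in WT and 6 and 12 in Ins2AKITA mice. The exact Poisson 95% intervals were 2.48 to 9.52 FPKM in WT replicate 1 and 16.6 to 29.6 FPKM in WT replicate 2, so the WT mice differed by more than counting error. Without WT replicate 1 the difference was -1.73 by limma across all genes (unadjusted p = 0.0166, adjusted p = 0.981). Without WT replicate 2 it was -0.77.

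Pgf, the placental growth factor, was near the limit of what this depth can show. It was at 3.16, 5.02 and 3.88 FPKM in WT and at 2.62 and 3.45 FPKM in Ins2AKITA mice. With its 1 annotated transcript, these values correspond to 5, 9 and 15 fragments in WT and 4 and 6 in Ins2AKITA mice. Pooled over mice, 10 fragments in Ins2AKITA against 29 in WT mice gave a rate ratio of 0.76 with an exact 95% interval of 0.33 to 1.61 for counting error alone. The log2 fold change was -0.31 (standard error 0.35, limma adjusted p = 0.90). The interval of the rate ratio held both lower and higher rates in Ins2AKITA mice. The size of difference that could be detected with these mice at this depth was not tested.

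VEGF-D, the other ligand of VEGFR3, is named Figf in the NCBIM37 annotation and was lower than all 7 members. It was at 1.82, 2.49 and 0.981 FPKM in WT and at 0.486 and 1.13 FPKM in Ins2AKITA mice. An estimated 1 to 6 fragments per mouse lay behind these values, so no difference could be read from them (log2 fold change -0.60, standard error 0.52, limma adjusted p = 0.90).

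Markers of other cell types moved between the mice beside these genes. All 14 endothelial markers had a lower mean log2 value in Ins2AKITA than in WT mice, with a median log2 fold change of -0.44, beside 53.5% of all tested genes that were lower. Without Ins2AKITA replicate 2 the median was -0.23, and without WT replicate 3 it was -0.67. None passed the adjusted threshold. An unadjusted limma p under 0.05 was reached by 4 (Cdh5, Robo4, Eng and Ly6c1), beside 2.93% of all tested genes as lower. Both Ins2AKITA values were below all WT values for 6 of the 14, beside 10.3% of all tested genes. The summed FPKM of the 14 was 769, 917 and 581 in WT and 597 and 468 in Ins2AKITA mice. The 8 astrocyte markers were all higher in Ins2AKITA mice, as were 7568 of the 16286 tested genes. The median log2 fold change of the 8 was 0.49, and 0.32 without Ins2AKITA replicate 2. None passed the adjusted threshold. Aldh1l1 had an unadjusted limma p under 0.05 (log2 fold change 1.03, adjusted p = 0.80), beside 1.53% of all tested genes as higher. Both Ins2AKITA values were above all WT values for 4 of the 8, beside 9.24% of all tested genes. The summed FPKM of the 8 was 2167, 2607 and 3011 in WT and 3413 and 4032 in Ins2AKITA mice. Pericyte and smooth muscle markers had medians of -0.25 and -0.65, and without Ins2AKITA replicate 2 these were -0.04 and -0.50. The 6 choroid plexus markers summed to 1850, 2076 and 704 FPKM in WT and 1855 and 997 FPKM in Ins2AKITA mice. The part of these shifts in the values of the receptors and of Vegfa was not tested.

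**Figure D3:**
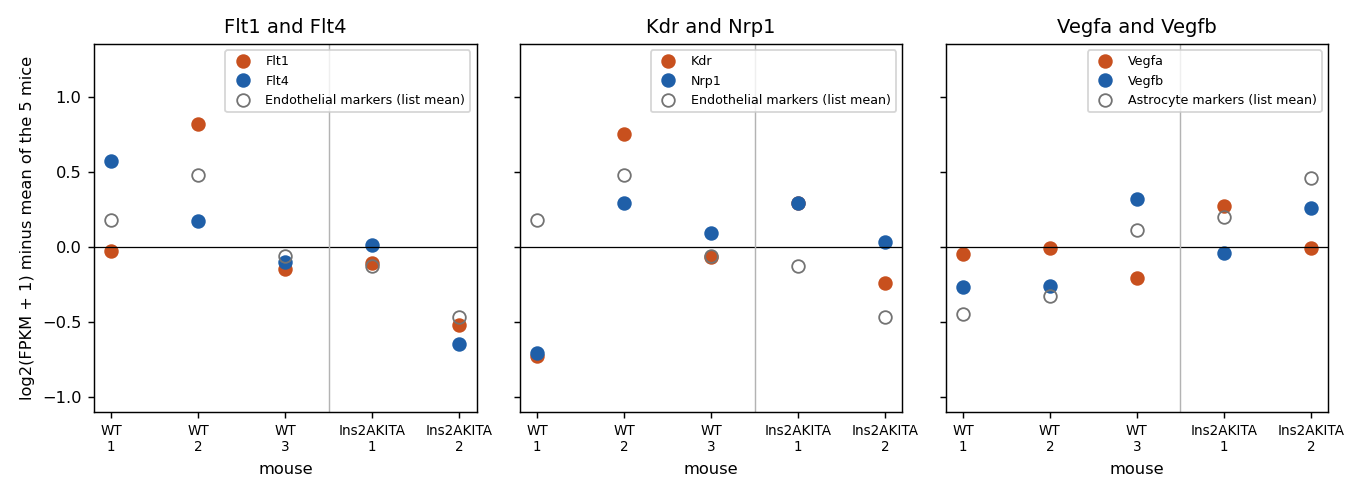
Each panel shows, for each mouse, log2(FPKM + 1) minus the mean of the 5 mice for a pair of VEGF genes (filled points) and for the mean of a marker list (open points). Flt1 and Flt4 lie within 0.2 of the endothelial markers in WT replicate 3 and both Ins2AKITA mice. They lie further apart in WT replicate 1 (-0.03 and 0.57, markers 0.18) and WT replicate 2 (0.82 and 0.17, markers 0.48). Kdr and Nrp1 share a low value in WT replicate 1 (-0.73 and -0.71), where the endothelial markers are at 0.18, and coincide in Ins2AKITA replicate 1 (0.29). They lie apart in WT replicate 2 (0.75 and 0.29) and Ins2AKITA replicate 2 (-0.24 and 0.03).

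To set the family beside the endothelial content of each mouse, the mean log2(FPKM + 1) of the 14 endothelial markers was subtracted. This mean was 5.43 ± 0.27 (SD, n = 3) in WT and 4.93 ± 0.25 (SD, n = 2) in Ins2AKITA mice. The difference between the genotypes was then -0.03 for both Flt1 and Flt4 (exact permutation p = 1 for each) and 0.54 for Kdr (exact permutation p = 0.4). Kdr was at -1.49, -0.31 and -0.59 in WT and at -0.17 and -0.35 in Ins2AKITA mice. These ranges overlapped, and without WT replicate 1 the Kdr difference was 0.19. Relative to the markers, Vegfa was at 0.62, 0.36 and 0.70 in WT and at 1.24 and 1.31 in Ins2AKITA mice. The ranges did not overlap, and the difference of 0.72 had the smallest exact two-sided permutation p that the design allows, 0.1. The permutation p values relative to the markers were not adjusted over the 7 members. Such a shift was common: relative to the same markers, both Ins2AKITA values were above all WT values for 32.3% of all tested genes and below them for 1.73%. The remaining ligands overlapped between the genotypes, with differences of 0.68 for Vegfb, -0.72 for Vegfc and 0.19 for Pgf. With one mouse left out, that of Vegfb ranged from 0.36 (without Ins2AKITA replicate 2) to 1.01 (without WT replicate 3) and that of Vegfc from -1.23 (without Ins2AKITA replicate 2) to -0.21 (without Ins2AKITA replicate 1).

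**Figure D4:**
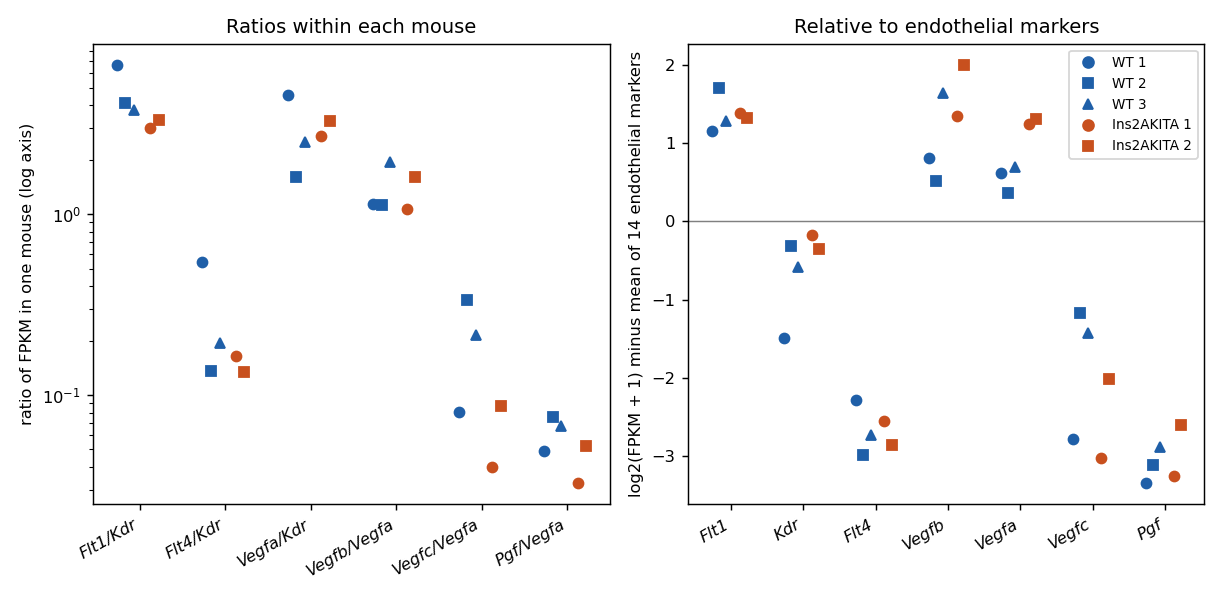
Left, ratios of FPKM within each mouse (log axis) for 6 pairs of VEGF genes; right, log2(FPKM + 1) of each gene minus the mean of the 14 endothelial markers in the same mouse. The Ins2AKITA mice lie below all WT mice for Flt1/Kdr (2.99 and 3.30) and above them for Vegfa relative to the endothelial markers (1.24 and 1.31); all other values overlap.

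The genes whose pattern over the 5 mice was most like that of each receptor were found by the root mean square difference of mean-centered log2 values, among 10473 other protein-coding genes with a mean of at least 5 FPKM. For Flt1 they were Tdp1 (0.053), Gtf2ird2 (0.069) and Lass5 (0.094), and for Kdr they were Ehd4 (0.085), Zfp777 (0.088) and Egfr (0.111). For Flt4 they were Il1r1 (0.048), Gpr30 (0.050) and Unc45a (0.053), and for Vegfa they were Zbtb17 (0.033), Dync1i2 (0.035) and Chd9 (0.036). The distance to Cdh5, the endothelial cadherin gene, was 0.175 for Flt1 (number 63 in likeness), 0.316 for Flt4 (number 1924) and 0.466 for Kdr (number 1880). The distance to Pecam1, whose protein was used for the capture, was 0.298 for Flt1 (number 623), 0.216 for Flt4 (number 582) and 0.567 for Kdr (number 4865). By distance, Kdr was the furthest of the 3 receptors from both markers, while Flt1 was nearer to Cdh5 and Flt4 nearer to Pecam1. By rank, Cdh5 came later for Flt4 (number 1924) than for Kdr (number 1880). Within a distance of 0.2 lay 45 genes for Kdr, 97 for Flt1, 441 for Flt4 and 1550 for Vegfa, which varied least.

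The neuropilins are co-receptors that present VEGF to its receptors and also bind semaphorins. Nrp1, the partner of VEGFR2, was at 7.23, 15.5 and 13.3 FPKM in WT and at 15.5 and 12.7 FPKM in Ins2AKITA mice. As for Kdr, WT replicate 1 was the lowest mouse. The log2 fold change was 0.27 (standard error 0.35, limma adjusted p = 0.92), and it was -0.03 without WT replicate 1. Nrp2, which also pairs with VEGFR3, was at 18.2, 24.3 and 15.6 FPKM in WT and at 14.5 and 12.1 FPKM in Ins2AKITA mice. Both Ins2AKITA values were below all WT values, as they were for 10.3% of all tested genes and for Efnb2, another receptor partner. The Nrp2 difference on the log2 scale was -0.49 (standard error 0.26, limma adjusted p = 0.90, exact permutation p = 0.2). Of the 8 co-receptors and receptor partners, 6 were lower and 2 higher in Ins2AKITA mice, beside 53.5% of all tested genes that were lower. The median log2 fold change of the 8 was -0.19, and none of them had an unadjusted limma p under 0.05. They include Ptprb, the phosphatase that restrains VEGFR2, at 38.2, 66.3 and 46.9 FPKM in WT and 44.7 and 33.2 FPKM in Ins2AKITA mice.

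The genes that carry the signal from the receptors showed no common direction. Of 39 such genes, 37 were tested, and 21 were higher and 16 lower in Ins2AKITA mice, beside 53.5% of all tested genes that were lower. The median log2 fold change of the 37 was 0.04, beside -0.03 for all tested genes. The lowest was Hspb1, a small heat shock protein of the actin cytoskeleton that is phosphorylated downstream of VEGFR2, at 39.4, 26.6 and 57.5 FPKM in WT and 23.1 and 12.6 FPKM in Ins2AKITA mice. It was the only one of the 37 with an unadjusted p under 0.05 in the limma fit across all genes (-1.15, standard error 0.39, adjusted p = 0.90). Over all tested genes, 2.93% reached this as lower, a share near that of 1 in 37. The highest was Pla2g4a, a cytosolic phospholipase A2, at 0.64 on the same scale (standard error 0.37, limma adjusted p = 0.90). Plcg1, the phospholipase C that binds activated VEGFR2, was at 90.7, 70.4 and 49.1 FPKM in WT and 53.0 and 36.2 FPKM in Ins2AKITA mice. Nos3, the endothelial nitric oxide synthase, was at 10.1, 20.2 and 15.5 FPKM in WT and 13.4 and 8.56 FPKM in Ins2AKITA mice. Both Ins2AKITA values were above all WT values for 4 of the 37 and below them for 3, beside 9.24% and 10.3% of all tested genes.

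Among genes known to respond to VEGF in endothelial cells, 11 of 15 were tested. Of these, 7 were lower and 4 higher in Ins2AKITA mice, beside 53.5% of all tested genes that were lower. The median log2 fold change of the 11 was -0.36. None passed the adjusted threshold (smallest adjusted p = 0.90 from limma). An unadjusted limma p under 0.05 was reached by 3 of the 11, beside 2.93% of all tested genes as lower. They were Adamts1 (a secreted metalloproteinase, log2 fold change -0.83, standard error 0.27), Egr3 (an early response transcription factor, -0.62, standard error 0.22) and Angpt2 (an angiopoietin released by endothelial cells, -1.03, standard error 0.38). Adamts1 was at 16.9, 11.7 and 18.9 FPKM in WT and 8.19 and 8.41 FPKM in Ins2AKITA mice, and Egr3 at 28.6, 26.1 and 32.6 FPKM in WT and 16.4 and 20.9 FPKM in Ins2AKITA mice. Both Ins2AKITA values were below all WT values for 5 of the 11, these 3 together with Dll4 and Nr4a1, beside 10.3% of all tested genes. The same held for 6 of the 14 endothelial, 5 of the 6 smooth muscle, 2 of the 9 pericyte and 0 of the 8 astrocyte markers. Dll4, the Notch ligand of endothelial tip cells, was at 7.30, 8.24 and 8.17 FPKM in WT and 5.54 and 4.64 FPKM in Ins2AKITA mice. The highest of the list was Apln, the apelin gene, which ranged from 4.39 to 28.7 FPKM in WT and was at 13.3 and 16.8 FPKM in Ins2AKITA mice. Esm1, Aplnr, Cxcr4 and Kcne3 had a mean under 1 FPKM. Without Ins2AKITA replicate 2 the median of the list was -0.18.

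**Figure D5:**
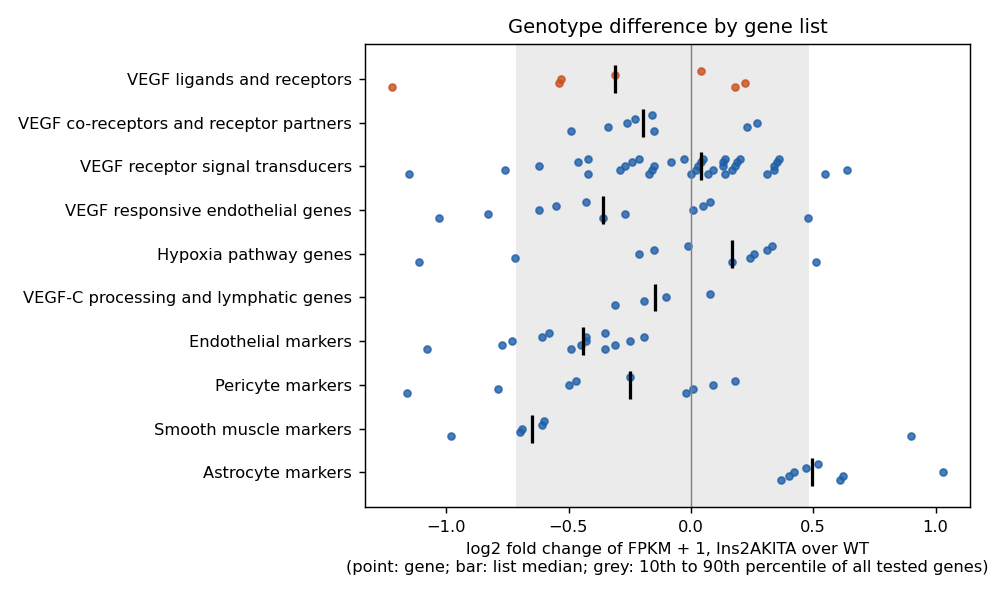
log2 fold change of FPKM + 1 in Ins2AKITA over WT mice for each tested gene of the VEGF family (orange) and of 9 gene lists (blue), with the median of each list as a black bar and the 10th to 90th percentile of all tested genes (-0.71 to 0.48) in grey. The medians run from -0.65 for smooth muscle markers and -0.44 for endothelial markers to 0.49 for astrocyte markers, with the VEGF family at -0.31.

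Hypoxia raises Vegfa through the HIF transcription factors, and 11 of 12 genes of that pathway were tested. Of these, 6 were higher and 5 lower in Ins2AKITA mice, beside 53.5% of all tested genes that were lower. The median log2 fold change of the 11 was 0.17, and none of them had an unadjusted limma p under 0.05. Hif1a was at 15.2, 17.4 and 24.4 FPKM in WT and 23.7 and 20.8 FPKM in Ins2AKITA mice, and Epas1, the HIF gene that is prominent in endothelium, at 158, 207 and 164 FPKM in WT and 160 and 156 FPKM in Ins2AKITA mice. The extremes were Vhl (log2 fold change 0.51, standard error 0.37) and Adm, the adrenomedullin gene (-1.11, standard error 0.73). Adm was at 10.3 FPKM in WT replicate 1 and at most 1.95 FPKM in the other mice.

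Of the 6 genes listed for VEGF-C processing and lymphatic vessels, 4 were tested, with log2 fold changes from -0.31 for Ccbe1, which helps to activate VEGF-C, to 0.08 for Pdpn, the podoplanin gene. Ccl21a, a chemokine gene of lymphatic endothelium, was at 0 in all mice, and Lyve1, a receptor on lymphatic endothelium and on macrophages, had a mean under 1 FPKM. Prox1, the transcription factor that sets lymphatic identity and is also found in brain neurons, was at 10.3, 12.9 and 12.3 FPKM in WT and 11.0 and 10.9 FPKM in Ins2AKITA mice.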

How the data were processed

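Brain microvascular RNA of 3 WT and 2 Ins2AKITA mice was measured. Per the labels and the study's methods, rRNA and tRNA were depleted, stranded total RNA libraries were made, reads were mapped to NCBIM37 with TopHat2 2.0.4, duplicates were removed with Picard 1.92, and tests were run with Cufflinks 2.2.1. The authors deposited 1 FPKM value per Ensembl gene identifier and mouse; the program that made these values and the Ensembl release are not given in the sources used here. Removal of duplicates can lower highly expressed short genes.

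Of 37982 identifiers, 37197 matched the GENCODE vM1 annotation of NCBIM37, and rows that share a symbol were summed (34615 symbols). Genes with a mean of at least 1 FPKM (16286) were tested on log2(FPKM + 1) with limma 3.58.1 in R 4.3.3 (trended prior, genotype as the only factor, two-sided, Benjamini-Hochberg over all tested genes at 0.05). The fit was tested on simulated data in which 200 genes were shifted by more than the estimate of any member. That does not show whether differences as small as those of the members could be found. Python 3.11.15 with scipy 1.17.1 served for the rest, including exact two-sided permutation tests over the 10 arrangements of the 5 mice. Fragments were estimated from the FPKM of 1 fragment in genes with 1 transcript and at least 800 bases of exon, whose effective length was 222 to 228 bases under the exon length; for genes with several transcripts the longest was used, so their fragment numbers are approximate. With 1127100 to 2848168 fragments per mouse, 3 fragments of Pgf correspond to 0.777 to 1.96 FPKM.

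The labels number the mice within each genotype but do not pair them, and each mouse was taken as a replicate of its genotype. The fold changes of the genes named by the rule below, the list medians and the counts of genes called were recomputed with 0.1 in place of 1 as pseudocount, with the filter dropped or raised to 5 FPKM, with scaling to the FPKM sum of protein-coding genes, by median ratios or quantiles, on protein-coding genes alone, with the replicate block, and with each mouse left out; the ratios with a pseudocount of 1 and each mouse left out; and the values relative to endothelial markers with Pecam1 and Cdh5 as the reference, the block and each mouse left out. The genes named are the 7 members, Figf, Nrp1 and Nrp2, the extremes of each pathway list and its genes at an unadjusted p under 0.05, and the 3 genes most like Flt1, Kdr, Flt4 and Vegfa. Others (Ptprb, Efnb2, Plcg1, Nos3, Dll4, Nr4a1, Hif1a, Epas1, Prox1, Lyve1 and the markers) were named after their values were seen and were not recomputed singly. The members and gene lists were chosen with earlier results of these data known.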

Additional observations from a re-analysis of the deposited data

How the results depend on the processing

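No member passed the adjusted threshold under any alternative, and 88 of the 90 alternative fits of the 7 members kept the direction; both exceptions were Kdr with a mouse left out. With one mouse left out, the log2 fold changes ranged from 0.08 to 0.36 for Vegfa, 0.03 to 0.38 for Vegfb, -1.73 to -0.77 for Vegfc, -0.46 to -0.16 for Pgf, -0.73 to -0.23 for Flt1, -0.32 to 0.42 for Kdr and -0.87 to -0.20 for Flt4. Leaving out an Ins2AKITA mouse leaves 1, which is assumed to vary like the WT mice. The differences of the log2 ratios then ranged from -0.74 to -0.33 for Flt1 to Kdr, -1.13 to -0.12 for Flt4 to Kdr, -0.18 to 0.57 for Vegfa to Kdr, -0.33 to 0.25 for Vegfb to Vegfa, -0.96 to -0.28 for Pgf to Vegfa and -2.19 to -1.06 for Vegfc to Vegfa. Relative to the endothelial markers the ranges were 0.62 to 0.79 for Vegfa, 0.36 to 1.01 for Vegfb, -1.23 to -0.21 for Vegfc, -0.14 to 0.13 for Flt1, 0.19 to 0.79 for Kdr, -0.20 to 0.16 for Flt4 and -0.13 to 0.52 for Pgf. The direction also turned for Nrp1 (-0.03 to 0.47), Apln (-0.06 to 1.17), Pdpn (-0.46 to 0.62), Ehd4 (-0.32 to 0.34), Zfp777 (-0.16 to 0.58) and Egfr (-0.33 to 0.32), and for the medians of the signal transducers (-0.08 to 0.12), the hypoxia genes (-0.07 to 0.14) and the VEGF-C genes (-0.36 to 0.04). The medians ranged from -0.67 to -0.23 for endothelial, -0.46 to -0.04 for pericyte and 0.32 to 0.67 for astrocyte markers, and from -0.50 to -0.18 for the VEGF-responsive genes.

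Over all genes, the 4 genes called lower became 2 with no filter and with the filter at 5 FPKM and 1 among protein-coding genes; with one mouse left out, 0 to 10 genes were called higher and 1 to 6 lower. The fit with the replicate block called 5 lower and 0 higher, without changing a member's call. WT replicate 3 has no Ins2AKITA mouse of the same number, so it did not enter the fold changes of this fit. They equal those without WT replicate 3 (Flt1 -0.71, Vegfc -1.17 and Kdr 0.01) and are no separate alternative, although the 90 fits count both. The medians of both fits were 0.10 for the signal transducers and -0.50 for the VEGF-responsive genes. The deviations of same-numbered mice correlated at 0.051 and -0.034, which does not pair them. The Figf value was -1.05 with a pseudocount of 0.1, and Figf and Pgf have no value with the filter at 5 FPKM. Among genes near 0, Ehd4 was at 0.0043 with median-ratio scaling and 0.02 with quantile normalization, and Egfr at -0.02 when scaled to the coding sum. The cause of these changes was not tested.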
